A study of Mus musculus with 8 samples.

Results

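The genes described here encode the factors that start and extend protein synthesis on the cytosolic ribosome. They were taken as every symbol that begins with Eif1 to Eif6, apart from the eIF2 kinases named Eif2ak, every symbol that begins with Eef1 or Eef2, and Pabpc1. The rule used names only and found 61 of the 23238 gene symbols in the count tables. Of these 61 genes, 59 had at least 1 count in some library and 54 passed the filter on low counts. Ribosome-associated RNA was measured in 8 mouse lung libraries, 4 from control mice (genotype Cdh5-CreERT2; RPL22tm1.1Psam) breathing room air and 4 from animals with an induced Sox17 deletion (Cdh5-CreERT2;Sox17fl/fl;RPL22tm1.1Psam) kept in hypoxia, called the deletion-hypoxia group below. The deleted gene encodes a transcription factor of arteries. All mice were of the C57BL/6J strain. Cdh5-CreERT2 is a recombinase that is made in endothelial cells and works after tamoxifen, and the modified RPL22 allele then tags endothelial ribosomes with haemagglutinin (HA), by which they were pulled down. Both groups received injections of 2 mg of tamoxifen for 5 days when 8 weeks old. Room air or hypoxia then lasted 3 weeks from the age of 10 weeks. The control mice carried no floxed Sox17 allele, and genotype and oxygen changed together, so their parts in any difference cannot be told apart. In an RNA pool such as this, fewer cells of a type and less RNA per cell also cannot be told apart.

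Initiation begins when eIF2 brings the initiator tRNA to the small ribosomal subunit, which eIF1, eIF1A, eIF3 and eIF5 hold ready to scan. The eIF4F complex binds the cap of the mRNA through eIF4E, unwinds its leader with the helicase eIF4A and, through the scaffold eIF4G, touches both eIF3 and the poly(A)-binding protein. Elongation then runs on eEF1A, which delivers aminoacyl-tRNA, and eEF2, which moves the ribosome along. Cells adjust the pathway mainly at the eIF2 exchange factor eIF2B and at the 4E-binding proteins, which mTORC1 controls; hypoxia is known to act on both.

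Library totals ran from 10567561 to 11884614 counts in the controls and from 7000313 to 12913304 in the Sox17-deleted hypoxic libraries, where 3 counts correspond to 0.232 to 0.429 CPM (counts per 1000000 counts of the library). Genes with a count numbered 9821 to 10429 in the controls and 8019 to 8708 in the Sox17-deleted hypoxic libraries, with no overlap (two-sided exact permutation test, p = 0.0286, which is the lowest value possible with 4 libraries a group). Sox17 itself was at 291, 234, 209.8 and 205 CPM in the controls and 36.6, 3.28, 0.857 and 3.67 CPM in the deletion-hypoxia group, where library 1 kept the most. The sums of 15 pan-endothelial markers overlapped between the groups, at 9539.9 to 10608 CPM and 7241 to 12718 CPM. Sums of alveolar type 2 markers did not overlap, at 984 to 1310.3 CPM in the controls and 2101 to 4236 CPM in the Sox17-deleted hypoxic libraries, with 10 of 12 log2 fold changes above 0 and none of the 12 genes at 0 in all libraries. DESeq2 called Sftpc and Sftpd of that list, Scgb1a1 of the club cell list and Ager of the alveolar type 1 list, all higher, and edgeR called no marker. Club and ciliated markers summed to 1293 to 2369 and 2634 to 5687 CPM, with 5 of 5 tested above 0. Fibroblast (282 to 542 and 186 to 1188 CPM), smooth muscle and pericyte (60.0 to 144 and 27.9 to 607 CPM) and macrophage sums (55.9 to 134 and 109.9 to 332 CPM) overlapped, as did alveolar type 1 (1184 to 1479.8 and 1162 to 1469 CPM) and erythroid sums (1325 to 2434 and 222 to 2839 CPM). Lymphocyte markers summed to 0.0859 to 30.1 CPM in the controls and 0 to 0.269 CPM in the Sox17-deleted hypoxic libraries, and none passed the filter. The macrophage marker Adgre1 and the B cell marker Ms4a1 were at 0 in all 8 libraries. Most of the translation factors are made in every cell type. The part of these other cells, or of the lower gene detection, in the values below was not tested.

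Together the 61 genes took between 0.961% and 1.23% of all counts in a library. The level of a gene here is its CPM from 3′-end tags, of which a transcript gives about the same number whatever its length, so levels were not divided by length. By this measure Eef2, the translocase of elongation, was the most abundant member, with a mean of 1487 CPM over the 8 libraries, followed by Eef1a1 (745 CPM), the eIF4G relative Eif4g2 (598 CPM), the start-codon factor Eif1 (596 CPM) and Eif5a (542 CPM). Eef2 was the highest member in each of the 8 libraries, at 1100.3 CPM or more, while the ranges of the next 4 overlapped one another. At the other end, the muscle and brain form Eef1a2 never passed 0.429 CPM, and the oocyte form Eif4e1b and the Y-linked Eif2s3y had no count in any library. A count of 0 allows up to 3 counts, or 0.232 to 0.429 CPM depending on the library. For 15 of the 25 members that averaged 100 CPM or more, the coefficient of variation was larger among the Sox17-deleted hypoxic libraries than among the controls, against 81.8% of all 2052 genes at that level. The median coefficient of variation of these 25 was 27.4% in the controls and 45.9% in the Sox17-deleted hypoxic libraries.

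**Figure D1:**
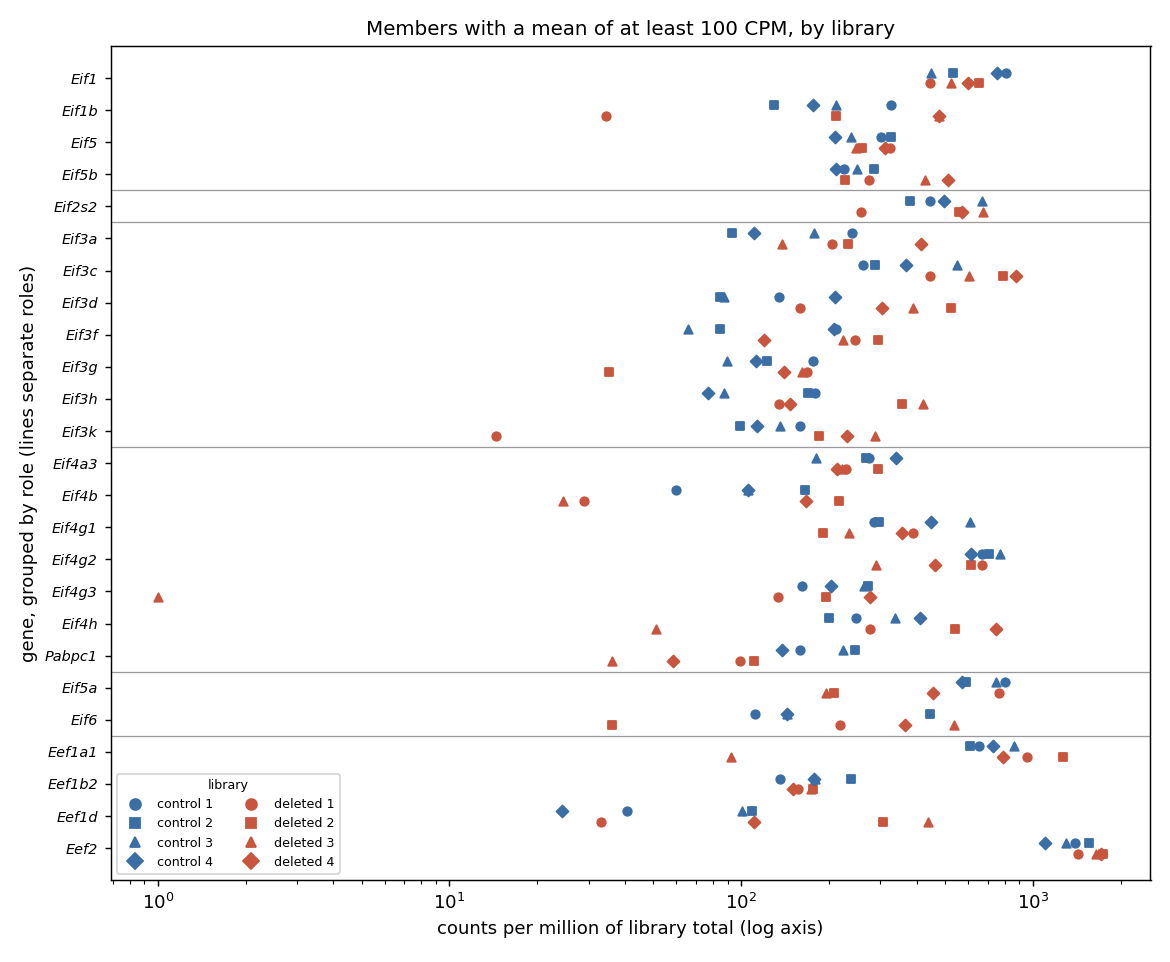
Level of each of the 25 members with a mean of at least 100 CPM, in CPM of the library total on a log axis, with a symbol for each of the 8 libraries and lines between role groups. The 8 symbols of Eef2 and those of Eif5 lie close to each other, Pabpc1 lies lower in all 4 Sox17-deleted hypoxic libraries, and library 3 of that group is far to the left for Eif4g3, Eif4h and Eef1a1.

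No member passed the test between the groups. With edgeR's quasi-likelihood test and Benjamini-Hochberg adjustment over all 8282 genes tested, 0 of the 54 members and 0% of all genes had an adjusted p under 0.05, and the lowest adjusted p of a member was 0.337. An unadjusted p under 0.05 was found for 6 members (11.1%) and for 5.12% of all genes tested. The 6 were Eif3j1, Eif2a, Eif3d, Eif3c, Pabpc1 and Eef1d. Of these, Eif3j1 and Eif2a passed the low-count filter only through the controls, where they were high; among tested genes with more than 3 counts in some library of each group, a restriction chosen after seeing the data, the counts were 4 of 52 members (7.69%) and 4% of 8185 genes. DESeq2 called 2 members, Eif2a and Eif2b1, both lower in the deletion-hypoxia group. It called 4.75% of 9873 genes, 122 of them higher and 347 lower. Limma-voom, run here and below with weights for the quality of each library, called none of the 54 members and 0.169% of all genes. Log2 fold changes, always Sox17-deleted hypoxia minus control, were above 0 for 27 members and below 0 for 27, with a median of 0.01 beside −0.01 over all genes tested. With limma-voom, which moved the median of all genes to −0.70, 19 members were above 0 and 35 below. The standard error of a member's log2 fold change ranged from 0.27 to 2.73 with a median of 0.77, and for 32 of the 54 the change was smaller than its standard error. The groups did not overlap in CPM for 4 of the 54, all lower in the Sox17-deleted hypoxic libraries: Pabpc1, Eif2a, Eif3j1 and Eif4ebp1. That is 7.41%, where 4.96% of all genes tested were lower without overlap; higher without overlap were 0 members and 1.63% of all genes, which makes 6.59% of all genes in either direction. With the same restriction, 2 of the 52 members (3.85%) and 3.86% of the 8185 genes were lower without overlap.

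**Figure D2:**
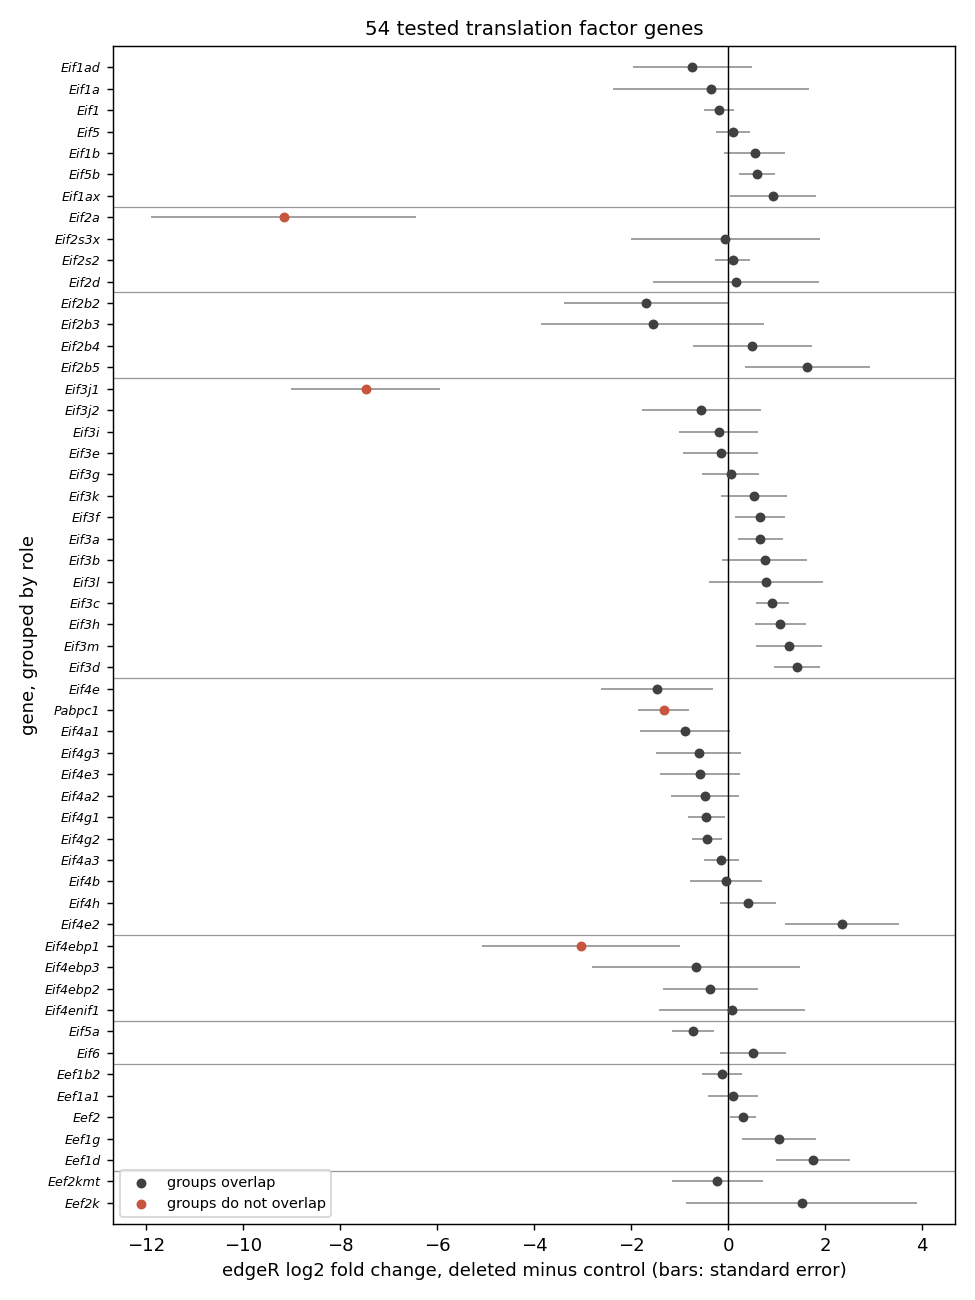
Log2 fold change (Sox17-deleted hypoxia minus control, edgeR) of the 54 tested members on the horizontal axis, with bars for the standard error, grouped by role. Most points lie within about 1 standard error of 0; Pabpc1, Eif2a, Eif3j1 and Eif4ebp1, whose groups do not overlap, are drawn in red, and the fitted values of Eif2a and Eif3j1 depend on the prior count because nearly all their counts are in the controls.

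The sequences at the gene starts are shown because mRNAs of many translation factors begin with a C followed by further C or T letters (5′ terminal oligopyrimidine mRNAs), and their ribosome loading depends on mTORC1 and the La-related protein LARP1. Windows of 30 bases, from 10 before to 20 from the annotated start in RefSeq (GRCm38.p6), were searched on the gene's strand for a C followed by at least 6 letters that are each C or T. Of the 46 members with an entry 12 (26.1%) held such a run, beside 15.6% of all 27025 genes and 44.7% of 76 ribosomal protein genes. The windows below show 3 of the longest runs among the members, that of the abundant Eef1a1, and Eef2, where none of that length was found. A run cut off by the end of a window was not followed further; the Eef2 window ends in C and T letters, so a longer run there cannot be told from these letters. Each is read 5′ to 3′ on the strand of the gene, with the run in capitals.
Eif3f, chr7:108934405-108934434, plus strand: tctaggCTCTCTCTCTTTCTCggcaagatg
Eif2b5, chr16:20498807-20498836, plus strand: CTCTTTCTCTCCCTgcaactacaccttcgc
Eif2s3x, chrX:94212632-94212661, minus strand: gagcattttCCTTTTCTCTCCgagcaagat
Eef1a1, chr9:78481705-78481734, minus strand: ctccgCCCTCTTCCCgagggtgggggagaa
Eef2, chr10:81176621-81176650, plus strand: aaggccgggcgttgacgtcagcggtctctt
The 10 tested members with a run had log2 fold changes from −1.69 to 1.63 with a median of 0.09, and the 30 tested members with an entry and no run found in the window had a median of 0.09. None of the 10 had groups with no overlap. A match only describes the letters in the window; 15 members, Pabpc1, Eef1d and Eif4ebp1 among them, had no entry.

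Among the factors that set up the small subunit and choose the start codon, the groups overlapped for each of the 7 genes. Eif1, which guards against starting at a wrong codon, was at 809, 532, 447 and 757 CPM in the controls and 444, 654, 523 and 601 CPM in the deletion-hypoxia group. Eif5, the activator of GTP hydrolysis by eIF2, was at 302, 327, 239 and 210.4 CPM in the controls and 323, 259.8, 248 and 312 CPM in the deletion-hypoxia group. Neither gene separated the groups, and Eif5 was among the steadiest members, with a coefficient of variation of 15.8% over the 8 libraries. Eif5b, which joins the large subunit, was at 225, 286, 249.8 and 212 CPM in the controls and 274, 228, 426 and 513 CPM in the deletion-hypoxia group, whose libraries 3 and 4 were above every control. Eif1b, a close relative of Eif1, was at 327, 129, 211 and 176 CPM in the controls and 34.4, 211, 476 and 478 CPM in the deletion-hypoxia group, which held both the lowest and the highest value. All 7 genes of this group were tested, with log2 fold changes from −0.74 to 0.93 and edgeR adjusted p values of 1.00. The lower members Eif1a, Eif1ad and Eif1ax ranged from 0 to 168 CPM.

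Of the subunits of eIF2, which carries the initiator tRNA, only the beta subunit gene Eif2s2 had a mean of at least 100 CPM. It was at 442, 379.7, 672 and 496 CPM in the controls and 257, 558, 677 and 572 CPM in the deletion-hypoxia group, and the groups overlapped. The alpha subunit gene Eif2s1, whose product is phosphorylated in the integrated stress response, had 735, 3, 1 and 1 counts among the controls, against 0, 0, 2 and 818 in the deletion-hypoxia group. A single library of each group thus held nearly all of its counts, and it did not pass the filter. Eif2s3x, the X-linked gamma subunit gene, had up to 75.1 CPM, while its Y-linked partner Eif2s3y had none and Xist, the transcript of the inactive X chromosome, had 19.6 to 156 CPM. Of the 4 sex-linked genes listed (Xist and the Y-linked Ddx3y, Uty and Kdm5d), 3 had a count in some library, so Y-linked counts were not absent. Only 1 of the 4 passed the filter. Eif2d, the gene of a related factor that acts on some starts and in recycling, ranged from 0 to 126 CPM, with both ends in the deletion-hypoxia group. Eif2a (chromosome 3, 58525821 to 58557501, plus strand, GRCm38), which encodes eIF2A, a separate protein that can bring initiator tRNA without eIF2, had 207, 205, 500 and 61 counts among the controls, against 0, 1, 0 and 0 in the deletion-hypoxia group. Eif2a passed the low-count filter through the controls only, so its groups had to differ. As a description, the edgeR adjusted p was 0.356 (unadjusted p = 0.00477). The summed counts per summed library totals were 873-fold higher in the controls, with an exact 95% interval of 156 to 34520 that covers counting error only. In DESeq2 the adjusted p of Eif2a was 1.34e-05, and over all 14 alternatives that gave a value it ran from 1.34e-05 to 0.860. Serp1 overlaps its exons on the opposite strand, so without stated strand rules some reads could belong to either gene.

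The 5 genes of eIF2B, which recharges eIF2 with GTP, were all low and uneven. Eif2b4, the highest by its mean, was at 59.8, 47.6, 30.2 and 76.5 CPM in the controls and 129, 23.7, 134 and 0.179 CPM in the deletion-hypoxia group, which held both extremes. Eif2b2 was at 109, 66.6, 33.3 and 77.9 CPM in the controls and 74.1, 0, 0.143 and 14.2 CPM in the deletion-hypoxia group, so that it was nearly unread in libraries 2 and 3 of that group. Eif2b1 had 560, 0, 89 and 195 counts among the controls, against 0, 0, 1 and 0 in the deletion-hypoxia group, and did not pass the filter in edgeR. Control library 2 also had none, so its groups overlapped; the DESeq2 adjusted p was 0.00942. The summed counts per summed totals were 757-fold higher in the controls (exact 95% interval 135.6 to 29950, counting error only). Eif2b3 and Eif2b5, the latter the gene of the catalytic subunit, ranged from 0 to 180.1 CPM. The 4 tested eIF2B genes had log2 fold changes between −1.69 and 1.63 and standard errors of at least 1.24.

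The eIF3 complex, the largest initiation factor, which bridges the small subunit and eIF4G, stood higher in sum in the Sox17-deleted hypoxic libraries. The 14 eIF3 genes summed to 1693, 1210.4, 1705 and 1577 CPM in the controls and 1856, 3066, 2433 and 2809 CPM in the Sox17-deleted hypoxic libraries, so the sums did not overlap, and they did not with TMM or RLE scaling either. Without Eif3c, the most abundant subunit gene, the sums overlapped, at 923 to 1430.3 and 1413 to 2274 CPM. Of the 14 genes, 10 had a log2 fold change above 0 and 4 below, with a median of 0.66 against −0.01 over all genes tested, and none was called by edgeR. With limma-voom 8 were above 0 and 6 below. The same libraries had higher sums of alveolar type 2 and club cell markers, as given above, and the part of those cells was not tested.

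The subunit gene with the lowest p apart from Eif3j1 was Eif3d (chromosome 15, 77958998 to 77970813, minus strand, GRCm38), whose product can bind the mRNA cap. An antisense gene, Gm17638, overlaps its exons. Its levels were 135, 84.4, 87.6 and 210.1 CPM in the controls and 159, 524, 387 and 305 CPM in the deletion-hypoxia group. Library 1 of the deletion-hypoxia group was within the control range and libraries 2, 3 and 4 lay above it, and the means were 129 ± 58.6 CPM and 344 ± 153 CPM (SD, n = 4; log2 fold change 1.42, SE 0.47, edgeR adjusted p = 0.462). Eif3c, a core subunit gene (chromosome 7, 126546455 to 126566411, minus strand), was at 263, 287, 551 and 367 CPM in the controls and 443, 792, 604 and 875 CPM in the deletion-hypoxia group. Here too library 1 lay inside the control range and the other 3 above it, with means of 367 ± 131 CPM and 679 ± 194 CPM (SD, n = 4; log2 fold change 0.91, SE 0.34, edgeR adjusted p = 0.657). The adjusted p of Eif3d lay between 0.0537 and 0.962 across its 15 alternatives and that of Eif3c between 0.0857 and 1.00, and the log2 fold changes stayed above 0.

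Other well-read eIF3 genes were less clear. Eif3h was at 179, 169.6, 87.1 and 77.1 CPM in the controls and 135, 355, 420.3 and 147 CPM in the deletion-hypoxia group, with libraries 2 and 3 there above all others. Eif3a, the scaffold subunit gene, was at 239.9, 93.1, 177 and 111 CPM in the controls and 205, 232, 138 and 412 CPM in the deletion-hypoxia group, and the groups overlapped. Eif3f was at 211, 84.4, 65.6 and 208 CPM in the controls and 245, 296, 224 and 120.1 CPM in the deletion-hypoxia group, with the lowest values in control libraries 2 and 3. None of these 3 genes separated the groups. Eif3k was at 159, 99.3, 136 and 113 CPM in the controls and 14.4, 184, 288 and 229.8 CPM in the deletion-hypoxia group, above every control in libraries 2, 3 and 4 and below every control in library 1. Eif3g, a subunit gene linked to scanning, was at 177, 122, 89.6 and 112 CPM in the controls and 168, 35.1, 162 and 140.2 CPM in the deletion-hypoxia group, and did not separate the groups. The remaining Eif3b, Eif3e, Eif3i, Eif3j2, Eif3l and Eif3m had means of under 100 CPM, and their log2 fold changes ran from −0.55 to 1.26.

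Eif3j1 and Eif3j2 encode near-identical forms of the loosely bound eIF3 subunit J. Eif3j1 (chromosome 2, 122028546 to 122056598, plus strand, GRCm38) had 16, 28, 24 and 26 counts among the controls and no count in any of the 4 libraries of the deletion-hypoxia group. Set against a floor of 3 counts per library, its mean control level of 2.07 CPM was at least 6.65-fold higher than that of the Sox17-deleted hypoxic libraries. It passed the low-count filter through the controls only, so its groups had to differ, and its edgeR p (unadjusted p = 0.000524, adjusted p = 0.337) is given as a description. Eif3j2 held 94.3% to 100% of the pair's counts in each library, at 24.98, 76.1, 49.6 and 39.9 CPM in the controls and 22.9, 16.8, 11.3 and 80.6 CPM in the deletion-hypoxia group. The last 200 bases of Eif3j2 transcripts match Eif3j1 transcripts at up to 99.5% identity, so how the counts fall between the pair is uncertain. Spg11 also overlaps exons of Eif3j1 on the opposite strand.

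**Figure D3:**
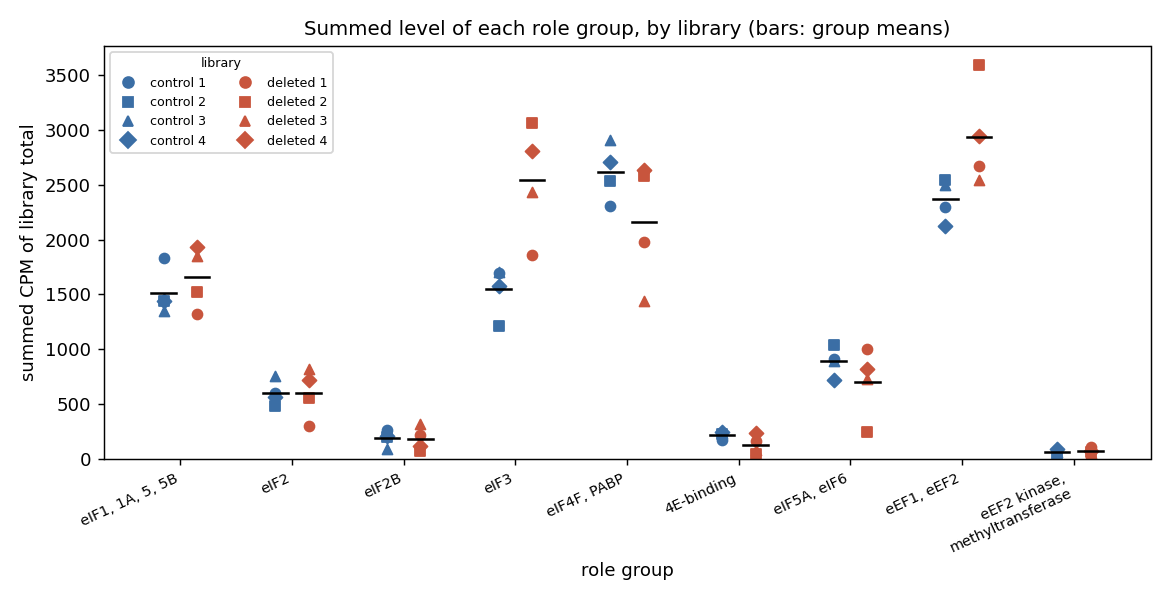
Summed CPM of the library total for the 9 role groups, with a symbol for each library and short bars for the group means (4 libraries each). The eIF3 sums of the Sox17-deleted hypoxic libraries lie above all control sums, the elongation factor sums of the groups touch at 2543 CPM without overlap, and those of the other 7 role groups overlap.

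Most log2 fold changes were below 0 in the role group of the cap-binding complex. This group also held Pabpc1, the helicase helpers and relatives of the subunit genes, such as Eif4a3. Of the 12 tested genes of this role group, counted with Pabpc1, 10 had a log2 fold change below 0 and 2 above, with a median of −0.47. With RLE scaling or with library totals 9 were below 0 and 3 above. None was called by edgeR, and the sums of the group overlapped, at 2305 to 2909 CPM in the controls and 1441 to 2637 CPM in the Sox17-deleted hypoxic libraries.

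Pabpc1 (chromosome 15, 36595661 to 36609668, minus strand, GRCm38) encodes the cytoplasmic poly(A)-binding protein, which closes the loop between the tail of an mRNA and eIF4G. It was at 159, 246, 224 and 138 CPM in the controls and 99.1, 111, 36.0 and 58.6 CPM in the deletion-hypoxia group. The means were 192 ± 51.5 CPM and 76.2 ± 35.0 CPM (SD, n = 4). Every value of the deletion-hypoxia group was below every control, and Pabpc1 was the only member with a mean of at least 100 CPM for which this held. Among all 2052 genes at that level, 4.43% were lower without overlap and 4.14% higher. The log2 fold change was −1.33 (SE 0.53, edgeR adjusted p = 0.764), and it stayed between −1.52 and −1.13 when any 1 library was left out. The adjusted p over 15 alternatives ran from 0.114 to 1.00.

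Scaffold genes of the eIF4G family were well read. Eif4g2, whose product lacks the eIF4E site and serves cap-independent starts, was at 667, 705, 771 and 612 CPM in the controls and 669, 614, 289 and 460.1 CPM in the deletion-hypoxia group, with libraries 3 and 4 there below all controls. Eif4g1, the main scaffold gene, was at 284, 297, 610.2 and 448 CPM in the controls and 388, 190.2, 234 and 357 CPM in the deletion-hypoxia group, so that the groups overlapped. Eif4g3 was at 161, 273, 265 and 203 CPM in the controls and 134, 195, 1.00 and 277 CPM in the deletion-hypoxia group, where library 3 held almost none of it and library 4 was above every control. Eif4g2 made up the largest share of the family's counts in 8 of 8 libraries, from 42.0% to 61.5%.

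Among the helicase genes, Eif4a3, which belongs to the exon junction complex rather than to eIF4F, was the highest in all 8 libraries, at 275, 267, 181 and 341 CPM in the controls and 229, 295, 222 and 212 CPM in the deletion-hypoxia group. The groups overlapped for Eif4a3. Eif4a1, the main eIF4F helicase gene, was at 77.9, 92.1, 105 and 218 CPM in the controls and 76.9, 133, 1.29 and 61.3 CPM in the deletion-hypoxia group, with library 3 again near 0. Its relative Eif4a2 ranged from 35.7 to 113 CPM, with overlap. The genes of the 2 helicase helpers spread widely in the deletion-hypoxia group. Eif4h was at 248, 200.1, 336 and 410.0 CPM in the controls and 276, 541, 50.9 and 748 CPM in the deletion-hypoxia group, with library 3 below and libraries 2 and 4 above every control. Eif4b was at 59.8, 166, 105 and 105 CPM in the controls and 29.0, 217, 24.4 and 167 CPM in the deletion-hypoxia group, with libraries 1 and 3 below and libraries 2 and 4 above every control. For both the lowest value was in library 3, which also had the smallest total.

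The leading cap-binding protein gene differed from library to library. Eif4e, which encodes the cap-binding subunit of eIF4F, took 36.3%, 51.8%, 51.1% and 11.6% of the family's counts in the controls, against 6.70%, 9.43%, 14.1% and 9.17% in the deletion-hypoxia group. Eif4e2, which encodes a relative that takes part in cap-dependent initiation under hypoxia and in repression elsewhere, took 17.9%, 25.6%, 3.57% and 11.6% and 8.64%, 11.7%, 77.0% and 82.4% in turn. Eif4e3 led in control libraries 1 and 4 and in libraries 1 and 2 of the deletion-hypoxia group, Eif4e in control libraries 2 and 3, and Eif4e2 in libraries 3 and 4 of the deletion-hypoxia group. Eif4e ranged from 2.40 to 117 CPM and Eif4e3 from 16.2 to 152 CPM. Eif4e2 levels were 46.6, 54.8, 8.16 and 14.9 CPM in the controls and 3.10, 22.7, 420.3 and 158 CPM in the deletion-hypoxia group, with an edgeR log2 fold change of 2.36 (SE 1.18, adjusted p = 1.00). The higher mean of the deletion-hypoxia group lay in 2 of its 4 libraries; library 2 was within the control range and library 1 below it.

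The inhibitors that keep eIF4E from eIF4G were low. Eif4ebp1 (chromosome 8, 27260329 to 27276674, plus strand, GRCm38), the best-known target of mTORC1 among them, was at 47.2, 132, 47.3 and 65.6 CPM in the controls and 0.0774, 0, 0 and 36.9 CPM in the deletion-hypoxia group. Its groups did not overlap, but library 4 of the deletion-hypoxia group came close to the lowest controls, and the log2 fold change of −3.03 had a standard error of 2.04 (edgeR adjusted p = 1.00). Without that library the fitted log2 fold change was −10.74, a value that depends on the prior count since the remaining 3 libraries held 1 count. Eif4ebp2 was at 55.6, 25.03, 151 and 101 CPM in the controls and 114, 41.3, 3.43 and 97.1 CPM in the deletion-hypoxia group, and Eif4ebp3 reached at most 46.5 CPM. The leading form of the family was Eif4ebp2 in control libraries 1, 3 and 4 and in libraries 1, 2 and 4 of the deletion-hypoxia group, Eif4ebp1 in control library 2, and Eif4ebp3 in library 3 of the deletion-hypoxia group. Eif4ebp3 shares its transcript end with a same-strand neighbour in the annotation, so its counts are uncertain. Eif4enif1, which encodes a protein that carries eIF4E into the nucleus, ranged from 0 to 89.0 CPM. The 4 tested genes of this group had log2 fold changes from −3.03 to 0.08.

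**Figure D4:**
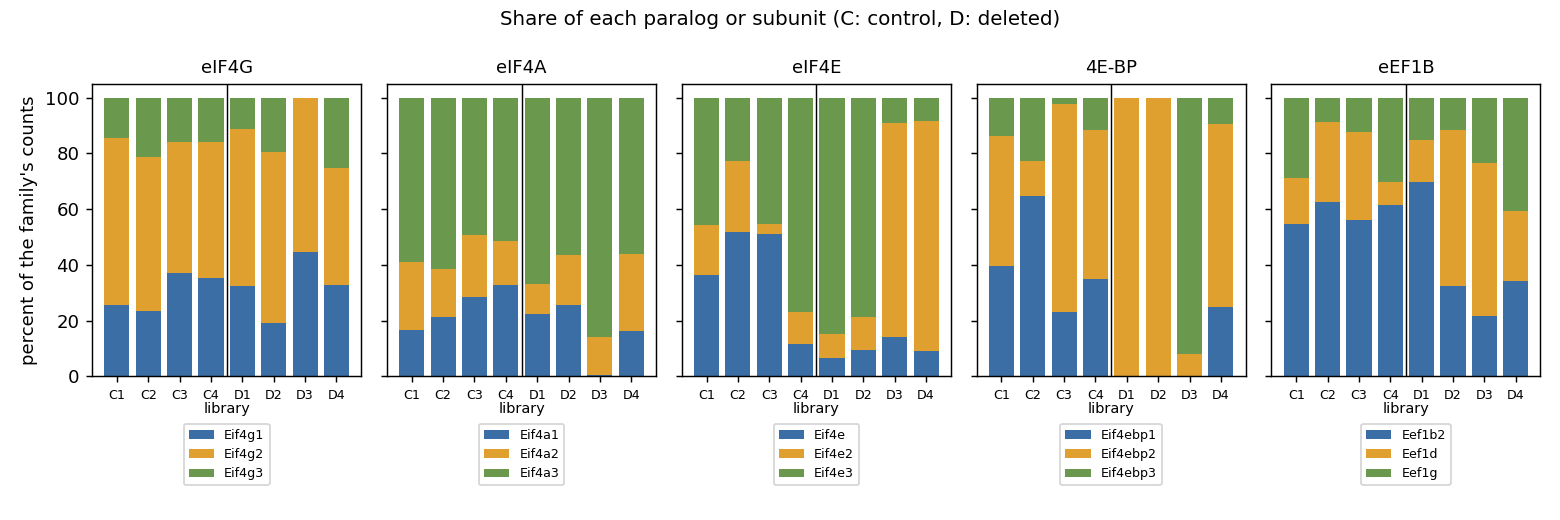
Percent of a family's counts taken by each gene in each library (C1 to C4 controls, D1 to D4 Sox17-deleted hypoxic), for the eIF4G, eIF4A, eIF4E, 4E-BP and eEF1B families. Eif4g2 takes the largest eIF4G share in every library, whereas in the eIF4E family Eif4e2 takes 77.0% and 82.4% in D3 and D4 and no more than 25.6% elsewhere.

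Eif5a, which encodes the hypusine-bearing factor that helps ribosomes through stalling sequences, was at 800.0, 590.4, 748 and 573 CPM in the controls and 768, 208, 195 and 456 CPM in the deletion-hypoxia group. Libraries 2, 3 and 4 of the deletion-hypoxia group were below every control, and library 1 was above 3 of the 4 (log2 fold change −0.73, SE 0.43, edgeR adjusted p = 1.00). The second form, Eif5a2, had 183 counts in the deletion-hypoxia group, all in library 1, and 2 counts in the controls. Eif6, which keeps the ribosomal subunits apart until the large one is ready, was at 111, 445, 144 and 144 CPM in the controls and 219, 36.1, 537 and 364 CPM in the deletion-hypoxia group, a wide spread in both groups.

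The elongation factors summed to 2298, 2543, 2502 and 2123 CPM in the controls and 2671, 3591, 2543 and 2945 CPM in the Sox17-deleted hypoxic libraries, where the highest control (2542.91 CPM) and the lowest library of the deletion-hypoxia group (2543.03 CPM) all but met. With TMM scaling the sums were 2134 to 2638 and 2756 to 3462 CPM. With RLE scaling they were 2018 to 2559 and 2722 to 3572 CPM, so they did not overlap on any of the 3 scales. In CPM of the library total this rests on Eef1d, whose counts are uncertain, as given below. Eef1d made up 436 CPM of the lowest sum of the deletion-hypoxia group, in library 3, and 24.4 to 109 CPM in the controls. Of the 5 tested genes 4 had a log2 fold change above 0, and edgeR called none. Eef2 (chromosome 10, 81176631 to 81182498, plus strand, GRCm38) was at 1398, 1556, 1301 and 1100.3 CPM in the controls and 1431, 1743, 1652 and 1716 CPM in the deletion-hypoxia group. The means were 1339 ± 191 CPM and 1635 ± 142 CPM (SD, n = 4). Its log2 fold change was 0.30 (SE 0.27, edgeR adjusted p = 1.00), and with a coefficient of variation of 14.9% it was the steadiest of the 25 well-read members. Eef1a1 (chromosome 9, 78478449 to 78489151, minus strand) was at 653, 607, 862 and 733 CPM in the controls and 953, 1269, 92.1 and 789 CPM in the deletion-hypoxia group, which held both the highest and the lowest value. Its log2 fold change was 0.10 (SE 0.52, edgeR adjusted p = 1.00), and without library 3 of that group it was 0.46.

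The exchange complex eEF1B, which reloads eEF1A with GTP, was read unevenly. Eef1b2, the beta subunit gene, did not separate the groups, at 135, 238, 179 and 178 CPM in the controls and 156, 176, 174 and 150.4 CPM in the deletion-hypoxia group. Eef1d, the delta subunit gene (chromosome 15, 75894205 to 75909556, minus strand), was at 40.7, 109, 101 and 24.4 CPM in the controls and 33.0, 307, 436 and 110.5 CPM in the deletion-hypoxia group, where libraries 2, 3 and 4 were above every control and library 1 was not. The log2 fold change was 1.75 (SE 0.76, edgeR adjusted p = 0.890) and was 1.07 without library 3 and 2.14 without library 1. Transcripts of Naprt, the next gene on the same strand, match the end of Eef1d transcripts at up to 100% identity, so the source of these counts is uncertain. Eef1g, the gamma subunit gene, was at 71.0, 33.4, 39.3 and 87.3 CPM in the controls and 34.3, 63.0, 189 and 178 CPM in the deletion-hypoxia group, with libraries 3 and 4 there above every control. Eef1e1, whose product is mainly a scaffold of the aminoacyl-tRNA synthetase complex, was at 0 in 5 libraries and reached 64.3 CPM. Among the genes that modify elongation factors, Eef2kmt, a methyltransferase gene, was at 48.2, 41.8, 63.7 and 75.1 CPM in the controls and 54.6, 25.6, 53.3 and 56.7 CPM in the deletion-hypoxia group, and Eef2k, the kinase that halts eEF2, had 0 in 2 control libraries and no more than 52.1 CPM.

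For Eif3c, Eif3d and Eef1d, library 1 of the deletion-hypoxia group was inside the control range and the other 3 libraries of that group were above it. These genes were picked after their values were seen. For Eif3k, library 1 was below every control, at 14.4 CPM. Library 1 also kept the most Sox17, and a link between that and these values was not tested. With library 1 left out, a step chosen after seeing the data, 13 of the 54 members had groups with no overlap. Higher were Eef1d, Eef2, Eif3b, Eif3c, Eif3d and Eif3k (11.1%, against 4.32% of all genes tested). Lower were Eif1ad, Eif2a, Eif2b2, Eif3j1, Eif4ebp1, Eif5a and Pabpc1 (13%, against 9.65%). With any other single library left out, 5 or 6 members (9.26% to 11.1%) and 8.37% to 11.8% of all genes tested did not overlap. Separated groups stay separated when a library is left out, so these counts could only stay or rise. Pabpc1, Eif2a, Eif3j1 and Eif4ebp1 were therefore bound to be among the members each time. EdgeR called no member with or without any library.

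Low members were at or near 0 in single libraries. Of the 30 members with a mean of 10 to 100 CPM, 2 to 3 had no more than 3 counts in a control library and 4 to 9 in a Sox17-deleted hypoxic one, or 6.67% to 10% and 13.3% to 30%. Over all 6102 genes at that level the shares were 8.77% to 16.4% and 27.3% to 37.4% (two-sided exact permutation p = 0.0286, the smallest possible). Library 3 of the Sox17-deleted hypoxic group, with the smallest total, was the lowest of all 8 for 7 of the 25 members above 100 CPM and the highest for 5.

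Ribosomal protein genes, named by their Rpl, Rps and Rplp symbols, summed to 15631, 17212, 17868 and 16860.4 CPM in the controls and 19385, 24696, 27001 and 24659.7 CPM in the Sox17-deleted hypoxic libraries, with no overlap. Their median log2 fold change was 0.38 over 90 tested genes, beside 0.01 for the translation factors; the difference between both sets was not tested.

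The genes that control these factors were not called either: 0 of 77 tested genes in 5 lists passed the edgeR test. In the integrated stress response list 15 of 23 genes were tested, with 5 log2 fold changes above 0 and 10 below (3 and 12 with library totals, 1 and 14 with limma-voom and with the replicate block). Slc3a2, an amino acid transporter chain gene and the most abundant of them, was at 1261, 912, 1113 and 934 CPM in the controls and 1651, 407, 283 and 303 CPM in the deletion-hypoxia group. Libraries 2, 3 and 4 of the deletion-hypoxia group were below every control, and library 1 was above every control. Eif2ak2, the gene of the kinase PKR, which phosphorylates eIF2 alpha in response to double-stranded RNA, was at 28.6, 21.6, 27.2 and 16.9 CPM in the controls and 0.0774, 1.27, 2.29 and 0 CPM in the deletion-hypoxia group, with no overlap (edgeR adjusted p = 1.00). Atf4, the transcription factor at the centre of the response, named after its values were seen, was at 210.2, 356, 207 and 191 CPM in the controls and 155, 175, 415 and 194 CPM in the deletion-hypoxia group, with wide overlap.

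In the list of mTORC1 and 4E-BP control 21 of 26 genes were tested, 7 above 0 and 14 below. Ddit4, a hypoxia-inducible inhibitor of mTORC1 and the most abundant gene of this list, was at 397, 203, 432 and 343 CPM in the controls and 314, 380.2, 272 and 244 CPM in the deletion-hypoxia group. The groups overlapped for Ddit4. Larp1, the gene of the protein that binds oligopyrimidine mRNAs, was at 79.1, 61.0, 102 and 61.7 CPM in the controls and 27.3, 29.9, 4.00 and 42.4 CPM in the deletion-hypoxia group, with no overlap (log2 fold change −1.57, SE 1.06, edgeR adjusted p = 1.00). Mtor itself had at most 36.7 CPM and was at 0 in 3 libraries.

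The list of poly(A)-binding partners had 7 of 12 genes tested, 1 above 0 and 6 below. Paip2, which encodes an inhibitor of the poly(A)-binding protein, was the most abundant, at 218, 374, 224 and 199 CPM in the controls and 61.7, 148, 44.4 and 415 CPM in the deletion-hypoxia group, and the groups overlapped. Pan2, a deadenylase subunit gene, had 311, 25, 382 and 495 counts among the controls, against 0, 0, 1 and 0 in the deletion-hypoxia group. It passed the low-count filter through the controls only, so its groups had to differ. Its edgeR adjusted p of 0.386 is given as a description. Tob1, whose product links deadenylation to the poly(A)-binding protein, also did not overlap, at 9, 282, 5 and 132 and 2, 0, 0 and 1 counts, but did not pass the filter. Of 11 tested genes of termination, recycling and hypusination 7 were above 0 and 4 below (5 and 6 with limma-voom and with the replicate block), and Abcf1, a ribosome-associated ATPase gene, led at 191 ± 48.5 CPM in the controls and 308 ± 128.1 CPM in the other group (SD, n = 4). Of 23 cytosolic aminoacyl-tRNA synthetase and scaffold genes 14 were above 0 and 9 below, with a median of 0.44. With RLE scaling 15 were above 0 and 8 below, and with limma-voom 12 and 11, with a median of 0.27. Farsb, a subunit gene of phenylalanyl-tRNA synthetase, led at 122 ± 60.7 CPM and 254 ± 157 CPM (SD, n = 4). In the 5 lists together 34 log2 fold changes were above 0 and 43 below, and 3 of 77 genes did not overlap, all lower, beside 4.96% of all genes tested. Pan2, which is among these 3, passed the filter through the controls only. DESeq2 called 5 of the 89 list genes to which it gave a p-value, all lower in the deletion-hypoxia group. They were Eefsec, Mlst8, Pan2, Rptor and Tob1, and none had more than 3 counts in any library of that group. The groups overlapped for Mlst8 (487, 127, 207 and 0 counts among the controls), Rptor (737, 91, 1 and 397) and Eefsec (0, 114, 241 and 204). Only Pan2 of the 5 passed the edgeR filter. Over all genes with an adjusted p DESeq2 called 4.75%, of which most were lower too (347 of 469).

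Some members have near-copies elsewhere in the genome or share their transcript end with a neighbouring gene. The last 200 bases of their coding transcripts matched transcripts of other genes (at least 150 bases at 90% identity or more) for 22 other genes in the case of Eif1 and 13 in the case of Eef1a1, all pseudogenes for Eef1a1 and 21 of 22 for Eif1. Eif4a2 matched 4, among them Rfc4, a neighbour that overlaps its exons. Eif4a3, Eif5, Eif5a, Eef1b2 and Eef1d matched 3 each, and those of Eef1d included Naprt, which overlaps its exons. Since it is not known how reads with several matches were counted, the levels of these members are uncertain in all libraries alike.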

How the data were processed

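RNA bound to HA-tagged endothelial ribosomes was pulled down from mouse lung and sequenced as QuantSeq 3′-end libraries, per the labels' protocols. The deposited files hold whole-number counts of reads per gene symbol, 1 file per library, made by the authors with Bowtie2, bedtools and genome build mm10, per the submitters' processing notes; versions, strand rules and the treatment of reads with several matches are not given in the sources used here. Rows that shared a symbol (44) were summed. CPM values are counts per 1000000 counts of the library.

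Groups were compared over 8 libraries with edgeR 4.0.16 (R 4.3.3; TMM factors, filterByExpr, quasi-likelihood test, Benjamini-Hochberg adjustment over all 8282 genes tested, calls at an adjusted p under 0.05). The standard error of an edgeR log2 fold change was taken as its absolute value over the square root of the quasi-likelihood F statistic. DESeq2 1.42.0 and limma 3.58.1 (limma-voom with sample quality weights) were alternatives. Other scalings and filters, a replicate block and each library left out were also tried. The fitting script was tested on simulated data. Transcript ends were compared with blastn 2.17.0 against GENCODE M21 transcripts, and gene starts came from RefSeq (GRCm38.p6). Nothing states that libraries came from separate animals, so p-values measure the spread between libraries, which may be technical. The libraries differed from one another by far more than counting noise (chi-square per degree of freedom of at least 187.7).

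The members and the gene lists were chosen with earlier results of these data known. Values per library are given for members with a mean of at least 100 CPM, for tested members whose groups did not overlap and for the most abundant member of each role, and log2 fold changes for the non-overlapping members Pabpc1 and Eif4ebp1. For Eif2a and Eif3j1, also non-overlapping but at or near 0 in 1 group, a ratio or bound stands in place of the fitted fold change, which depends on the prior count. Values or fold changes of other members (Eif2b1, Eif2b2, Eif2s1, Eif3j2, Eif4a1, Eif4e2 and Eef1g in full; Eif3c, Eif3d, Eif5a, Eef1a1, Eef1d and Eef2 as fold changes) were chosen after their values were seen. List genes are named where the groups did not overlap or where they led their list, with Atf4, Mtor and the genes DESeq2 called added after their values were seen.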

Additional observations from a re-analysis of the deposited data

Results flagged for a closer look

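In 4 of the 61 groups of 4 libraries checked, over the 31 members given in full, 1 library stood far from the other 3 by Dixon's criterion; chance gives about 1 in 20 such groups. Eif6 was at 445.3 CPM in control library 2, where the other controls were between 111.5 and 144 CPM. Eif4ebp1 was at 36.92 CPM in library 4 of the Sox17-deleted hypoxic group, against 0 to 0.0774 CPM in the other 3. Eef2kmt, the gene of an eEF2 lysine methyltransferase, was at 25.62 CPM in library 2 of that group, against 53.28 to 56.72 CPM. Eif2a was at 0.1059 CPM in the same library, which is 1 count, against 0 in the other 3.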

How the results depend on the processing

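Over all genes, edgeR called 0 (424 at an unadjusted p under 0.05). The count was 17 with no filter on low counts, 4 with a far stricter minimum level, 14 with limma-voom and 469 with DESeq2; leaving out 1 library gave 0 to 5, with 5 when library 1 of the Sox17-deleted hypoxic group was left out. Of the members, DESeq2 called 2 (10 of 57 at an unadjusted p under 0.05) and every other setting 0, leave-one-out fits included (0 to 0). Of the list genes, DESeq2 called 5 and every other setting 0 (0 to 0 when 1 library was left out). The number of members whose groups did not overlap stayed at 4 with TMM-scaled and RLE-scaled CPM. It ran from 5 to 13 when 1 library was left out, an alternative chosen after seeing the data. The 13 came without library 1 of the Sox17-deleted hypoxic group. Separated groups stay separated when a library is left out, so a fall in this number was not possible. Over genes with more than 3 counts in some library of each group, also chosen after seeing the data, the number was 2. Eif2a and Eif3j1 leave that count. The log2 fold change of Eef1a1 was −0.061 with limma-voom, −0.22 with the replicate block, and −0.05 and −0.21 without libraries 1 and 2 of that group, and its leave-one-out fits ran from −0.21 to 0.46; the cause was not tested. The other 8 genes with a log2 fold change in these comparisons kept their direction. RLE factors moved the median of all genes to 0.08, limma-voom to −0.70 and the block to −0.57. The replicate numbers did not pair the libraries, since same-numbered deviations correlated between −0.02 and 0.02, and the fit with the replicate block called 0 genes. A floor of 3 counts, the upper limit that a count of 0 allows, equals 0.232 to 0.429 CPM per library, and values below it rest on 1 or 2 counts.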
